A study of Mus musculus with 12 samples.

Results

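MicroRNAs that are linked to the inflammatory transcription factor NF-kB were followed through mouse skin and skin tumours, namely mmu-mir-146a-5p, mmu-mir-146b-5p and mmu-mir-155-5p. They were taken by name from the deposited table, and the 3 were found among its 1251 rows. The groups were untreated dorsal skin of wild-type mice (WT, 3 libraries) and of mice with the genotype TAp63-/- (knockout, 3 libraries), both aged 4 weeks, and cutaneous squamous cell carcinoma (SCC) of WT (2 libraries) and knockout mice (4 libraries). The tumours came from mice older than 35 weeks that received chronic ultraviolet radiation (UVR) at 2.5 kJ/m2 with 3 exposures a week. All mice were C57Bl6. TAp63 is the isoform of the p53 relative p63 that carries the transactivation domain, and the labels do not describe the knockout allele further. Tissue, age and UVR changed together between skin and tumours, so their effects cannot be told apart. RNA came from whole frozen tissue, so fewer cells of a type and less RNA per cell cannot be told apart either.

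A microRNA is a short RNA that pairs through its seed, bases 2 to 8, with target messenger RNAs and lowers their output. NF-kB switches on the genes of miR-146a and miR-155 in cells that sense microbial products or inflammatory cytokines. miR-146a and miR-146b repress the adaptors IRAK1 and TRAF6 upstream of NF-kB and so act as a brake, while miR-155 targets inhibitors such as SOCS1 and SHIP1 and mostly prolongs inflammatory signalling. In skin, miR-146a is made by keratinocytes as well as immune cells, and miR-155 is known mainly from activated lymphocytes and macrophages.

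The mature sequences show why the 3 miRNAs form 2 seed families. They are given 5′ to 3′ from RefSeq (GRCm38.p6), with the seed in capitals.
mmu-mir-146a-5p: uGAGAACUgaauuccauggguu
mmu-mir-146b-5p: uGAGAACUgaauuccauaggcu
mmu-mir-155-5p: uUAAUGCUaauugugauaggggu
Among 1679 mouse mature miRNAs of the reference, the seed of the miR-146 pair occurred in 2, the pair itself, and the seed of miR-155-5p in 1. The 2 members of the pair are identical over their first 17 bases and at 20 of 22 positions in all. Counted from the 5′ end, miR-146b-5p differs from miR-146a-5p by G18A and U21C, which are set in capitals here.
miR-146a-5p: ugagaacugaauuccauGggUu
miR-146b-5p: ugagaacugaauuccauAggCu
A read that ends before base 18 fits both, and how such reads were counted is not given in the sources used here. The split between the members of the pair is therefore uncertain to the extent that reads were cut short.

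The 3 hairpins lie on different chromosomes and are shown to place the mature arm, in capitals, within each.
Mir146: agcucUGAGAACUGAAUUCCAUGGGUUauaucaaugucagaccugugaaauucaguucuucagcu
Mir146b: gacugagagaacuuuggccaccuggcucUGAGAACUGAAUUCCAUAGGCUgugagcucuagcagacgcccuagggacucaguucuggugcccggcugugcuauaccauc
Mir155: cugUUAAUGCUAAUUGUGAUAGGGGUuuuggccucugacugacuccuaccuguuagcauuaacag
The hairpin of miR-146a (gene symbol Mir146) is at chr11:43374397-43374461 on the minus strand and overlaps no other gene of GENCODE M21. The nearest one, the noncoding Gm12148, is 11021 bases away on the opposite strand. The miR-146b hairpin, at chr19:46342762-46342870 on the plus strand, lies within the protein-coding gene Mfsd13a on the same strand and overlaps none of its exons. The miR-155 hairpin, at chr16:84714140-84714204 on the plus strand, lies in an exon of its noncoding host gene Mir155hg.

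Values are the authors' normalized log2 values, which have a floor of 3.32, the log2 of 10. The files hold no read counts, so the depth is unknown. The libraries had 370 to 545 miRNAs above the floor. Of the 1251 rows, 544 were above the floor in at least 2 libraries and were tested, including 2 of the 3 members, and 647 rows were at the floor throughout. The labels do not say that each library is a separate mouse, so the p-values measure only the spread between these libraries, which may be partly technical.

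miR-155-5p was at the floor in all 12 libraries, in skin and tumours of both genotypes. No test of it was possible, and the design's planned difference between miR-155-5p and miR-146a-5p therefore held no information about miR-155-5p. The passenger arms miR-146a-3p, miR-146b-3p and miR-155-3p, the strands that are usually discarded, were at the floor in all 12 libraries as well. A floor value does not separate a miRNA that was absent from one that was low. Chosen as a reference after the values were seen, 6 miRNAs of nearly every cell type were above the floor in 12 of 12 libraries. They were let-7a-5p, miR-16-5p, miR-191-5p, miR-103-3p, miR-26a-5p and miR-24-3p, with log2 values of at least 13.17. At such levels they do not show whether a scarce miRNA would be detected. The leukocyte miRNAs miR-142-3p, miR-223-3p and miR-150-5p were above the floor in 12 of 12 libraries too. Their lowest values were 10.04, 10.33 and 7.69 on the log2 scale. Not all leukocyte miRNAs were detected so widely: miR-342-5p was above the floor in 6 libraries and miR-223-5p in 0.

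Both guide arms of the miR-146 pair were abundant, and the group means of both were lower in tumours of either genotype. In log2 units, miR-146a-5p stood at 13.67, 13.70 and 13.79 in WT skin and at 13.99, 13.55 and 13.60 in knockout skin. It stood at 10.93 and 11.54 in WT SCC and at 11.50, 11.85, 10.40 and 11.05 in knockout SCC. Every tumour library lay below every skin library, a separation seen in 11.6% of all tested miRNAs. There was a gap between the highest tumour (11.85) and the lowest skin library (13.55), and the skin libraries were close to each other. In rank, miR-146a-5p moved from place 47 to 54 among the miRNAs of a skin library to place 83 to 123 in a tumour.

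miR-146b-5p was the more abundant of the pair in all 12 libraries. In log2 units it stood at 15.13, 15.23 and 15.23 in WT skin and at 14.82, 14.99 and 15.72 in knockout skin. In WT SCC it stood at 13.91 and 15.13, and in knockout SCC at 13.43, 14.74, 13.79 and 14.19. Here the tissues overlapped: WT SCC replicate 2 had the same value as WT skin replicate 1 and exceeded knockout skin replicates 1 and 2, while the other 5 tumours lay below all 6 skin libraries. The tumour libraries also spread more widely than skin, with an SD of 0.63 (n = 6) against 0.31 (n = 6). The same was seen for miR-146a-5p, at 0.52 against 0.16, and neither difference in spread was tested. The order of the group means was WT skin (15.20 ± 0.06, SD, n = 3), knockout skin (15.18 ± 0.48, n = 3), WT SCC (14.52 ± 0.86, n = 2) and knockout SCC (14.04 ± 0.56, n = 4) for miR-146b-5p. For miR-146a-5p it was WT skin (13.72 ± 0.06), knockout skin (13.71 ± 0.25), WT SCC (11.23 ± 0.43) and knockout SCC (11.20 ± 0.62). Neighbours of the same tissue in these orders differed by less than their spread. Between knockout skin and WT SCC the libraries overlapped for miR-146b-5p and not for miR-146a-5p.

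**Figure D1:**
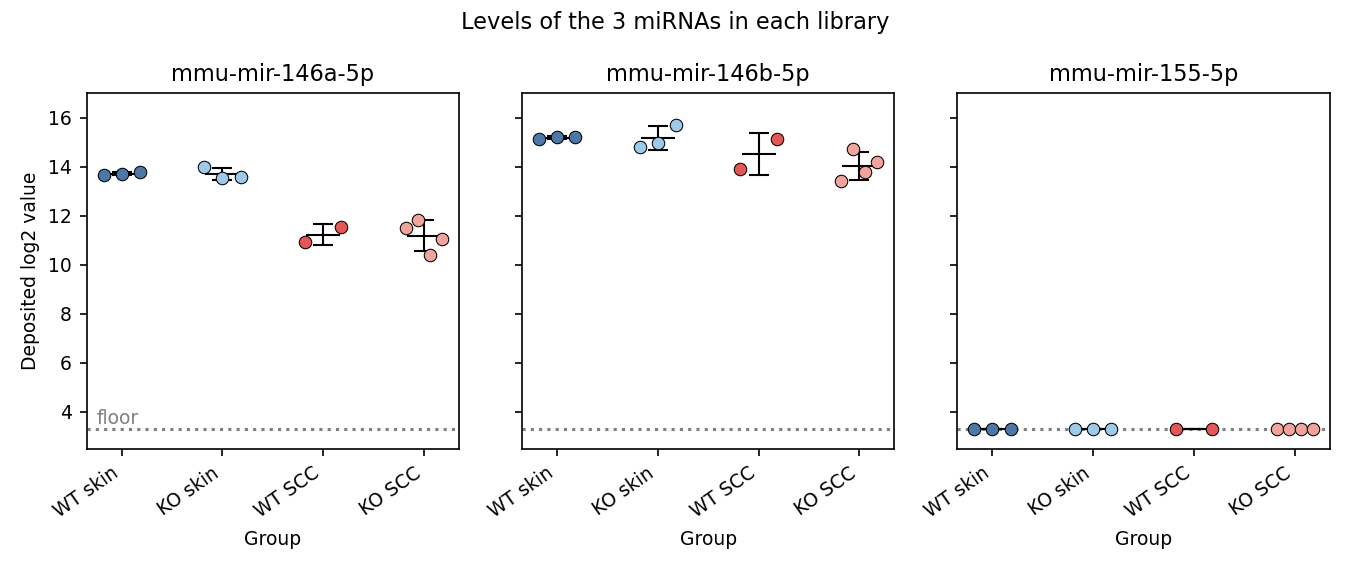
Deposited log2 values (vertical axis) of mmu-mir-146a-5p, mmu-mir-146b-5p and mmu-mir-155-5p by group (horizontal axis; KO is knockout); each point is a library, the bar and whiskers are the mean and SD, and the dotted line is the floor of 3.32. All miR-146a-5p tumour points lie below the skin points, 1 WT SCC point of miR-146b-5p lies among the skin points, and all 12 miR-155-5p points lie on the floor.

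The fall was fitted with limma over all 544 tested miRNAs, and an adjusted p (Benjamini-Hochberg) under 0.05 was called. Averaged over the genotypes, miR-146a-5p was 5.65-fold lower in SCC, a log2 change of -2.50 ± 0.25 (SE, limma adjusted p = 2.7e-05). miR-146b-5p was 1.88-fold lower, at -0.91 ± 0.29 (limma adjusted p = 0.0262). Both tested members were thus called lower in a comparison that called 21.5% of all tested miRNAs lower and 20.4% higher. Among the 544 tested miRNAs, that of miR-146a-5p was decrease number 21 by size, and that of miR-146b-5p number 106. All 6 tumours lay below all 6 skin libraries for miR-146a-5p but not for miR-146b-5p, a separation seen in 11.6% of tested miRNAs.

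The call of miR-146b-5p ended when any 1 of 4 libraries was left out. Its averaged change was -0.60 when WT SCC replicate 1 was left out (limma adjusted p = 0.144). Its adjusted p was 0.0508 with WT skin replicate 2 left out, 0.0503 with replicate 3 left out, and 0.0607 with knockout skin replicate 3 left out. The adjusted p ran from 0.00854 to 0.144 over its 18 alternatives. For miR-146a-5p the adjusted p ran from 1.1e-05 to 0.000401 over the same alternatives, with changes of -2.65 to -2.35.

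Within WT mice, miR-146a-5p fell by 2.49 ± 0.39 on the log2 scale (limma adjusted p = 0.00203), and 9.38% of tested miRNAs were called lower. miR-146b-5p was not called there, at -0.68 ± 0.44 (adjusted p = 0.331). The 2 WT tumours disagreed on miR-146b-5p: its WT change was -1.28 when replicate 1 was the only tumour kept and -0.07 when only replicate 2 was kept, and it was not called under any of its 19 alternatives. With 1 WT tumour left, that library is assumed to vary like the other groups. Within knockout mice, miR-146a-5p changed by -2.51 ± 0.32 (limma adjusted p = 2.7e-04) and miR-146b-5p by -1.14 ± 0.37 (adjusted p = 0.0339), where 18.2% of tested miRNAs were called lower. The knockout call of miR-146b-5p ended without knockout skin replicate 2 (-1.23, limma adjusted p = 0.0598) or 3 (-0.87, 0.138), or without knockout SCC replicate 1 (-0.94, 0.0753) or 3 (-1.06, 0.0678).

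The genotype made no detectable difference to either member. In skin, knockout minus WT was -0.01 for miR-146a-5p (95% interval -0.77 to 0.75, limma adjusted p = 1) and -0.02 for miR-146b-5p (-0.88 to 0.84, adjusted p = 1). In tumours it was -0.03 for miR-146a-5p (-0.84 to 0.77, adjusted p = 0.996) and -0.48 for miR-146b-5p (-1.40 to 0.43, adjusted p = 0.732). limma called 0 of 544 miRNAs in skin (0%) and 1 of 544 in tumours (0.184%), while 31 and 46 had an unadjusted p under 0.05. The tumour effect itself did not differ detectably between genotypes. The interaction, the knockout tumour effect minus the WT one, was -0.02 for miR-146a-5p (-1.13 to 1.09, adjusted p = 0.992) and -0.46 for miR-146b-5p (-1.72 to 0.79, adjusted p = 0.868). It was called for 0% of tested miRNAs (limma, 41 with an unadjusted p under 0.05). For miR-146b-5p the interval of the genotype difference in tumours includes a value as large as its averaged tumour effect. Without WT SCC replicate 2 the knockout-minus-WT difference in tumours became 0.12 for miR-146b-5p and 0.27 for miR-146a-5p. Without WT SCC replicate 1 it became -1.09 (limma adjusted p = 0.487) and -0.33 (adjusted p = 0.966).

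**Figure D2:**
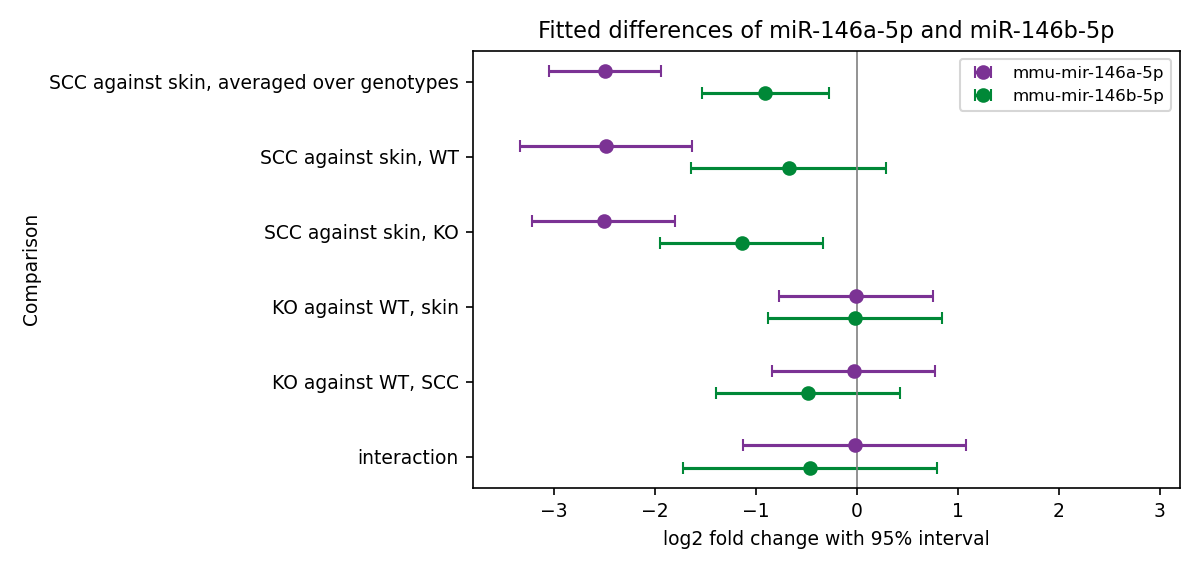
Fitted log2 fold changes (horizontal axis) of miR-146a-5p and miR-146b-5p in each comparison (vertical axis), with points for the limma estimates and whiskers for their 95% intervals. The tumour effects of miR-146a-5p lie near -2.50 in both genotypes, and the intervals of all genotype comparisons include 0.

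The balance of the pair shifted between tissues. The log2 difference miR-146a-5p minus miR-146b-5p was -1.46, -1.53 and -1.44 in WT skin and -0.82, -1.44 and -2.13 in knockout skin. It was -2.98 and -3.59 in WT SCC and -1.93, -2.89, -3.38 and -3.13 in knockout SCC. Of the 6 tumours, 5 lay below all skin libraries, and knockout SCC replicate 1 lay within the skin range. The means were -2.99 ± 0.58 (SD, n = 6) in SCC and -1.47 ± 0.41 (n = 6) in skin, so SCC minus skin was -1.52 log2 units, a 2.86-fold shift toward miR-146b-5p (exact two-sided permutation test, p = 0.00433 over 924 arrangements; not adjusted, since the other planned test, with miR-155-5p, was void). Within 1 genotype the design is smaller: the difference was -1.81 in WT mice (exact permutation p = 0.10, the smallest that 10 arrangements allow) and -1.37 in knockout mice (exact permutation p = 0.0857, 35 arrangements). This difference does not depend on any scaling factor of a library, although quantile normalization does not act as a single factor. How often other pairs of miRNAs shift as much was not measured, and 41.9% of tested miRNAs were called in the averaged comparison.

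On the linear scale, miR-146a-5p made up 26.8% ± 5.6 (SD, n = 6) of the summed values of the pair in skin and 11.7% ± 4.7 (n = 6) in tumours. miR-146b-5p exceeded miR-146a-5p by 1.77-fold to 4.37-fold in skin libraries and by 3.82-fold to 12.1-fold in tumours. These ratios compare normalized values of 2 miRNAs of equal length, and any difference in how well each was captured in the libraries goes into them. The summed level of the shared seed, in log2 units, ran from 15.44 to 16.02 in skin and from 13.77 to 15.25 in tumours. It was thus lower in every tumour than in every skin library, and the highest tumour was WT SCC replicate 2. Such a separation was seen in 11.6% of single tested miRNAs. The larger part of the sum, miR-146b-5p, overlapped between the tissues.

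**Figure D3:**
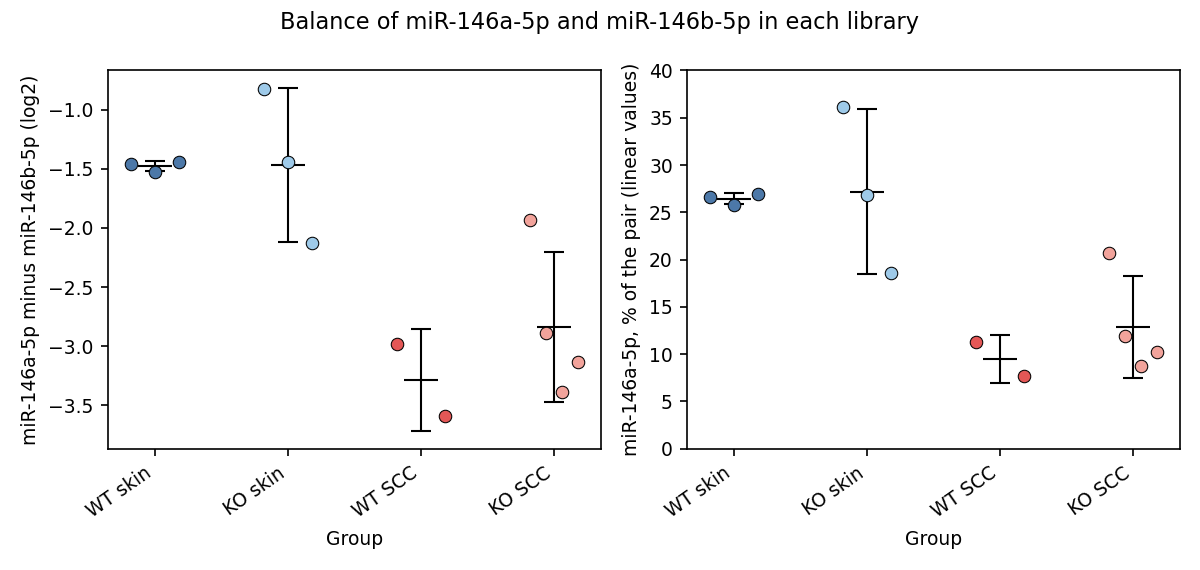
Left, log2 difference of miR-146a-5p minus miR-146b-5p; right, miR-146a-5p as a percentage of the summed linear values of the pair; both by group (horizontal axis), with a point for each library and the mean and SD. Skin libraries hold 18.6% to 36.1% miR-146a-5p and tumours 7.64% to 20.7%.

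Within a tissue the pair did not vary together detectably. Across the 6 tumours Pearson's r was 0.51 (exact permutation p = 0.308) and Spearman's rho 0.60 (exact permutation p = 0.242), and r was 0.26 without the 2 tumours farthest from the median of miR-146a-5p. Across the 6 skin libraries r was -0.52 (exact permutation p = 0.286), rho was -0.23 (exact permutation p = 0.672), and r without the 2 farthest libraries was -0.69. Adjusted over these 2 relations, both Pearson p-values were 0.308.

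The miRNAs whose levels ran most closely with each member over the 12 libraries were looked up among 217 candidates, the other tested miRNAs whose mean level was in the upper 40%. Skin and tumours form separate clusters of points, so such an r includes the difference between tissues, and it is given as a description. An r with the mean of each group removed is given beside it. For miR-146a-5p they were miR-10b-5p (r = 0.97), which lies in a Hox gene cluster, miR-30a-5p (r = 0.96) and the striated muscle miRNA miR-1a-3p (r = 0.95). With group means removed, r was 0.92, 0.77 and 0.45 in the same order. The tumour effects of these 3 were -1.69, -1.22 and -4.43 in log2 units. miR-10b-5p held the highest rank in skin, which fixes its value there. With group means removed, miR-10b-5p therefore varied only among the tumours, and its r of 0.92 rests on them. For miR-146b-5p they were miR-324-5p (r = 0.87), miR-211-5p (r = 0.85), which lies in the melanocyte gene Trpm1, and miR-218-5p (r = 0.83), which comes from introns of the Slit genes. Here r was 0.77, 0.62 and 0.46 with group means removed. miR-146a-5p was number 14 on the list of miR-146b-5p, and miR-146b-5p number 42 on that of miR-146a-5p (r = 0.78).

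Other miRNAs of the NF-kB pathway did not share 1 direction. Of 13 tested miRNAs reported to be induced by NF-kB or Toll-like receptor signalling, 1, miR-132-5p, passed the filter through tumours alone. Among the other 12, 5 rose and 2 fell in the averaged comparison, where 20.4% of all tested miRNAs were called higher and 21.5% lower. Their median log2 change was 0.14 (0.35 with miR-132-5p), against 0.04 over all tested miRNAs. The largest rises were of the abundant tumour miRNA miR-21a, whose guide arm miR-21a-5p changed by 2.91 ± 0.29 (limma adjusted p = 2.7e-05) and whose passenger arm miR-21a-3p changed by 5.57 ± 0.44 (8.0e-06). miR-132-5p, the passenger arm of a wound-induced miRNA, was at the floor in all 6 skin libraries and reached 4.81 in tumours, so it had to differ and its test is not given. miR-9-5p, an NF-kB-induced miRNA that targets Nfkb1, fell by 1.72 ± 0.41 (0.00663). With miR-132-5p included where it was tested, the counts ranged from 4 to 6 higher and 1 to 3 lower over the alternatives. The remaining calls were of miR-132-3p, miR-147-3p and miR-212-3p, which rose, and miR-212-5p, which fell. Each was lost in at least 1 alternative, and miR-132-3p in 10. The counts are of single arms, so both arms of miR-21a and both arms of miR-212 are among them. In all knockout tumours and in a WT tumour miR-21a-5p was at the top value of the table, which caps its change.

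Of 10 tested miRNAs reported to target components of the pathway, 4 rose and 2 fell (3 to 5 and 2 over the alternatives), with a median of 0.37. The share that fell was close to the 21.5% of all tested miRNAs, and 20.4% of all were called higher. miR-31-5p, a squamous tumour miRNA, rose by 3.95 ± 0.68 (limma adjusted p = 8.5e-04), and the hypoxia-induced miR-210-3p by 1.48 ± 0.40 (0.0125). miR-181b-5p, which targets the importin that carries NF-kB into the nucleus, fell by 1.22 ± 0.26 (0.00313), and miR-199a-5p changed by -1.14 ± 0.27 (0.00621). The decrease of miR-181b-5p was smaller than that of miR-146a-5p in log2 units, and the difference between them was not tested.

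**Figure D4:**
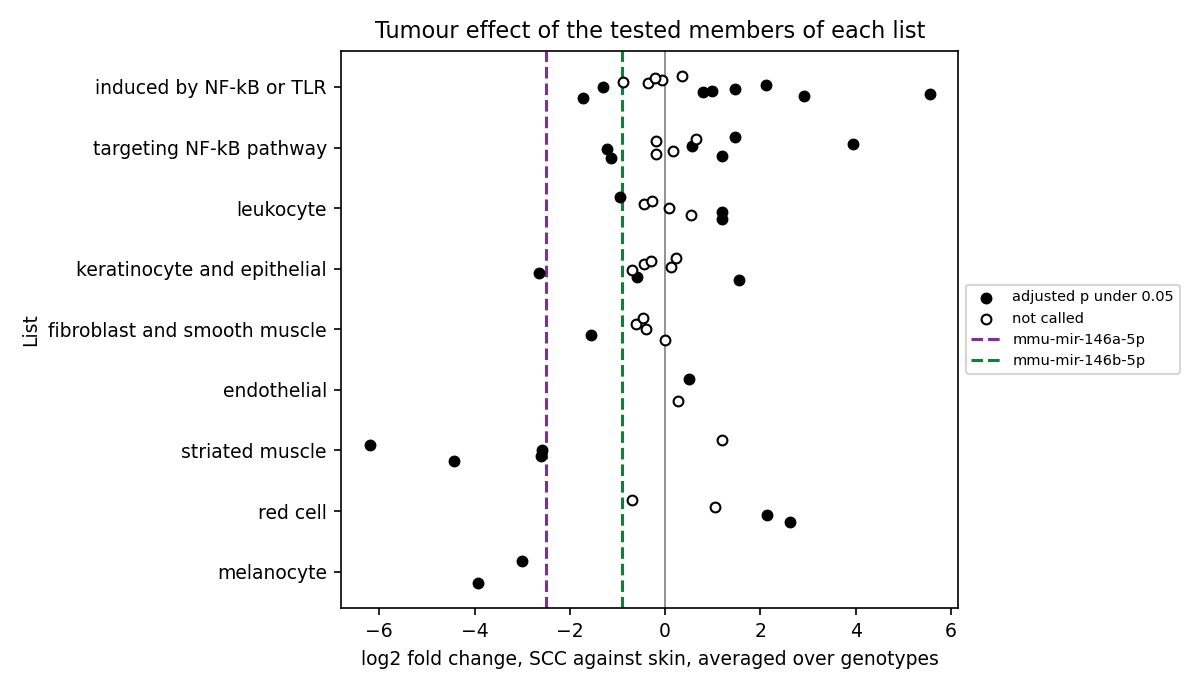
Fitted log2 fold changes in SCC against skin, averaged over genotypes (horizontal axis), of the tested members of each list (vertical axis); filled points have an adjusted p under 0.05, and dashed lines mark miR-146a-5p and miR-146b-5p. Both lists of the NF-kB pathway have filled points on both sides of 0.

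Markers of several cell types differed in level between skin and tumours, and their part in the changes of the miR-146 pair was not tested. Their counts are to be read against the 20.4% of all tested miRNAs called higher and the 21.5% called lower. Of 7 tested leukocyte miRNAs (the pair and miR-155 left out), 2 rose and 1 fell (1 to 3 and 1 over the alternatives), with a median of 0.09, which is near those shares. miR-142-3p, a miRNA of all blood cell lineages, rose by 1.19 ± 0.30 (limma adjusted p = 0.00889), and the myeloid miR-223-3p by 1.20 ± 0.33 (0.0125), which was not called without WT SCC replicate 1 (0.0780). miR-181a-5p, which is also abundant outside blood cells, fell by 0.94 ± 0.21 (0.00417). The summed level of the 8 leukocyte rows, led by miR-181a-5p, ran from 17.23 to 17.70 in skin and from 15.97 to 17.32 in tumours, and its member miR-223-5p was at the floor throughout. The other 4 were not called: miR-142-5p, from the hairpin of miR-142-3p, was at 0.54, miR-150-5p at 0.09, miR-342-5p at -0.27 and miR-342-3p at -0.44.

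Markers of the epithelium were present in every library. Of 8 tested, 1 rose (miR-205-5p, by 1.55 ± 0.19, limma adjusted p = 1.1e-04) and 2 fell, also near the shares over all tested miRNAs. The largest change was the fall of miR-184-3p, at -2.66 ± 0.54 (limma adjusted p = 0.00251), a call that held in every alternative. The other fall, of miR-203-3p, at -0.60 ± 0.21 (0.0416), was lost in 10 alternatives. The summed level of the epithelial markers was 18.33 to 18.80 in skin and 18.28 to 19.28 in tumours. Of 5 striated muscle miRNAs 4 fell, the fifth, miR-499-5p, was at the floor in all skin libraries, and their summed level, 16.02 to 16.46 in skin, was 12.21 to 14.94 in tumours. Both melanocyte miRNAs fell (summed level 11.18 to 12.67 in skin and 6.47 to 10.73 in tumours). Of 4 red cell miRNAs 2 rose, miR-451a by 2.61 ± 0.47 (limma adjusted p = 0.00126) and miR-144-3p by 2.14 ± 0.41 (0.00178). The summed level of the 4 (15.10 to 16.19, and 14.07 to 16.58) was led by miR-486-5p, which was not called (-0.69). Of 5 fibroblast and smooth muscle miRNAs 1 fell (17.66 to 19.38, and 17.42 to 18.71). Of 2 endothelial miRNAs 1, miR-126-5p, rose (15.53 to 15.94, and 15.87 to 16.50), a call lost when any 1 of 8 libraries was left out. By summed level, the muscle and melanocyte lists were lower in every tumour than in every skin library. Not all their members were: miR-211-5p overlapped between the tissues (lowest skin value 8.39, highest tumour value 9.75), and miR-499-5p reached 6.97 in tumours. For single miRNAs such a separation, as of miR-146a-5p, was seen in 11.6% of those tested, and a link to these lists was not tested.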

How the data were processed

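Small RNA sequencing of 12 libraries was deposited as 1 table of log2 values, never below 3.32. The genome build is mm10 according to the submitters' processing notes. The aligner, the counter, the normalization and the miRBase version: not given in the sources used here. The columns share almost the same set of values by rank, as quantile normalization gives, so a change reflects rank, and depth is unknown. Every column was matched to a library by its title.

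The deposited log2 values of 544 miRNAs (filter: above the floor in 2 or more libraries) entered limma 3.58.1 under R 4.3.3. The model had 1 mean per group, trended and robust moderated variances, and 8 residual degrees of freedom. Benjamini-Hochberg adjustment ran over all tested miRNAs of a comparison. The members, lists and rules were chosen with earlier results of these data known. The rule was to give values for the members, their passenger arms and the 3 miRNAs most like each tested member. It also named up to 4 called miRNAs of each list, smallest p first. Called miRNAs of the muscle, melanocyte, fibroblast and endothelial lists are given mostly as counts and summed levels. Some leukocyte miRNAs that were not called, and the 6 reference miRNAs, were added. Alternatives were median-ratio scaling, log2(linear value + 10), other filters (1 or 6 libraries), a plain variance model, library quality weights, a fit to the groups compared alone, permutation within genotype, and each library left out. Recomputing list counts this way, and without miRNAs seen in 1 tissue alone, was added after seeing the data. The fit was tested on simulated data. Replicate numbers follow accession order. Sequences come from RefSeq (GRCm38.p6), and gene positions from GENCODE M21.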

Additional observations from a re-analysis of the deposited data

How the results depend on the processing

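All calls of miR-146a-5p between tumours and skin held in every alternative run (18 averaged, 19 in each genotype), as did the shift between the members of the pair (-1.73 to -1.39, exact permutation p 0.00216 to 0.00649, 14 alternatives). Leaving out each library in turn moved miR-146b-5p from -1.21 to -0.60 in the averaged comparison and from -1.37 to -0.87 in knockout mice. The genotype differences, none of them called, changed sign. With each library left out, skin gave -0.15 to 0.0735 for miR-146a-5p and -0.29 to 0.16 for miR-146b-5p. Tumours gave -0.33 to 0.27 and -1.09 to 0.12, and the interaction -0.32 to 0.28 and -1.07 to 0.14. Median-ratio scaling gave 0.0345 and 0.0236 in skin, and library quality weights gave an interaction of 0.0717 for miR-146a-5p. The count of called miRNAs ranged from 30 (without WT SCC replicate 1) to 132 in WT mice, against 99. It reached 22 for genotype in skin with library quality weights, against 0. Without WT SCC replicate 2 it was 10 for genotype in tumours, against 1, and 10 for the interaction, against 0. It was also 65 or 61 in WT mice without WT skin replicate 1 or 2, at most 2 for genotype in skin with any other setting, 0 to 2 for genotype in tumours, and at most 1 for the interaction. No paired analysis was possible because skin and tumours came from mice of different ages and the labels tie no library of one group to a library of another. Read depth is unknown, so what it limits could not be measured, and values at the floor cannot separate low from absent.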
